A study of Mus musculus with 19 samples.

Results

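Mast cells are resident leukocytes of connective tissue that hold dense granules packed with proteases, histamine and serglycin proteoglycan. They release these granules when IgE bound to the receptor FcεRI is cross-linked, and they depend on KIT, the receptor for stem cell factor, to survive. In adipose tissue they lie scattered among adipocytes and along vessels and are few in number beside macrophages. Here 6 genes that mark them, Cpa3, Cma1, Mcpt4, Tpsb2, Kit and Ms4a2, were followed in the epididymal white adipose tissue (eWAT) of mice on 4 diets. The genes were chosen by name, as the rows with these symbols, out of the 24237 genes of the FPKM table (fragments per kilobase of transcript, scaled to the mapped reads of the library), and all 6 were found there. The set was chosen with earlier results of these data known.

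Male C57Bl6/J mice, 9 to 10 weeks old at the start, were fed for 17 weeks a low-fat diet (LFD, 10% of energy from palm oil) or a high-fat diet (HFD, 60% of energy from palm oil), each with a normal content of 0.21% or a low content of 0.03% wt/wt MgO. All mice were wild type. RNA was sequenced from 4 NormMg-LFD, 5 LowMg-LFD, 5 NormMg-HFD and 5 LowMg-HFD mice, 1 library per mouse, to 12986441 to 13027028 reads each. The tissue was measured in bulk, so that fewer mast cells and less RNA of these genes per mast cell cannot be told apart.

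The proteases come first among the markers. Cpa3 (chr3:20215620-20242181, minus strand) encodes the granule carboxypeptidase A3. Cma1 (chr14:55941451-55944675, minus strand) and Mcpt4 (chr14:56059629-56062313, minus strand) encode the chymases mMCP-5 and mMCP-4, and the 2 genes lie 114953 bases apart. Tpsb2 (chr17:25366305-25369098, plus strand) encodes the tryptase mMCP-6. Kit (chr5:75574916-75656722, plus strand) encodes the stem cell factor receptor, which melanocytes, interstitial cells of Cajal, germ cells and blood progenitors also carry. Ms4a2 (chr19:11615523-11623719, minus strand) encodes the beta chain of FcεRI, shared by mast cells and basophils. All 6 are protein-coding genes, with coordinates of GRCm38 from GENCODE.

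The 250 bases before the start of 4 members whose levels are described together below are shown next, since GATA factors are known regulators of mast cell genes (RefSeq, GRCm38.p6, 5′ to 3′ on the strand of the gene). Capitals mark the GATA motif, AGATAA or TGATAA on either strand, so that TTATCT is the same motif read backwards. The windows are chr3:20242182-20242431, chr14:55944676-55944925, chr14:56062311-56062560 and chr19:11623720-11623969.
Cpa3: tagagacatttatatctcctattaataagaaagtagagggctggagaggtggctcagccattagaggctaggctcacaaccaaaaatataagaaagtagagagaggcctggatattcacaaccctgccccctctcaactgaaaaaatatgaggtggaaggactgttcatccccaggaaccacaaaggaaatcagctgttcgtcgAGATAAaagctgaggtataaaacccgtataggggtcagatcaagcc
Cma1: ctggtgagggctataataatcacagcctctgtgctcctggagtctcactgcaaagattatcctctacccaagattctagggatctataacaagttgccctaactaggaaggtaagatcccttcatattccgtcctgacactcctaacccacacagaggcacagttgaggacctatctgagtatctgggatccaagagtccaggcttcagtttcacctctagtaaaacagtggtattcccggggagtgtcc
Mcpt4: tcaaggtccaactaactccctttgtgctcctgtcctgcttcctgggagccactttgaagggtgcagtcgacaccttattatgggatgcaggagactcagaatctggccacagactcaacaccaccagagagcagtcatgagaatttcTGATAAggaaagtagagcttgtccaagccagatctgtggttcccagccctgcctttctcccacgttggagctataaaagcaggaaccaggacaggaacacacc
Ms4a2: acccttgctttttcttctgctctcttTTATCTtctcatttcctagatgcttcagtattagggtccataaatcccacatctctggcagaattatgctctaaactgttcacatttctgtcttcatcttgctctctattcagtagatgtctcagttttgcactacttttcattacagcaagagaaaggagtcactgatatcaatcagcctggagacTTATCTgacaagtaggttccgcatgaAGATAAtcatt

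Of all 32851 mouse promoters of this length, 16.6% held the motif. Cpa3 held 1 copy, whose first base lies 46 bases before the start, and Mcpt4 held 1 copy at 103 bases. Ms4a2 held 3 copies, at 224, 37 and 11 bases. Cma1 and Kit held none in this window. The ETS core GAGGAA, read on both strands and found in 23.3% of promoters, was present only in Kit among these 5 genes, 223 bases before the start. The E-box CANNTG, found in 66.2% of promoters, was present in Cpa3 (2 copies) and Cma1 (1 copy). The promoter of Tpsb2 was not used here.

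Before the results, 3 libraries stood apart by RNA of neighbouring organs. The library labelled NormMg-LFD replicate 3 held 1728.9 FPKM over 12 exocrine pancreas genes, against 61.96 in the next library. In the study's methods it is a LowMg-HFD mouse that had pancreas RNA and was left out. The labels and the methods thus differ on the group of the library with pancreas RNA. Every NormMg-LFD library, this one among them, had at most 38.92 FPKM of the macrophage gene Cd68 and 11.83 FPKM of the leukocyte gene Ptprc. Every LowMg-HFD library had at least 56.68 and 13.52 FPKM. Whether labels were exchanged was not tested. Which LowMg-HFD mouse was left out is not given in the sources used here, and all LowMg-HFD libraries were used as labelled. LowMg-LFD replicate 4 held 125.55 FPKM over 6 epididymis genes, against 3.84 in the next. LowMg-HFD replicate 4 held 25.45 FPKM of the germ cell gene Ddx4, against 3.49 in the next. The defining genes of adipocytes were abundant, with a mean over 19 mice of 1925 FPKM for Adipoq and 9172 FPKM for Fabp4. The log2 fold changes of the members without these 3 libraries are given at the end.

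Over the 19 mice, Tpsb2 had the highest mean of the markers, 9.59 FPKM, followed by Mcpt4 (9.10 FPKM), Cma1 (7.76 FPKM), Cpa3 (5.26 FPKM) and Kit (4.81 FPKM). Ms4a2 lay far lower, at 0.424 FPKM. The order was not the same within each group, since Mcpt4 was level with Tpsb2 in NormMg-HFD (14.4 and 14.2 FPKM) and Kit had the highest mean in LowMg-HFD. For the 4 proteases and Ms4a2, the group means had 1 order, with LowMg-HFD lowest, then LowMg-LFD, then NormMg-LFD, and NormMg-HFD highest. No pair of neighbours in that order passed the test below, while the pair at its ends did for each of these 5 genes. Kit followed another order, from 4.07 FPKM in NormMg-HFD over 4.37 in LowMg-LFD and 4.74 in NormMg-LFD to 6.04 in LowMg-HFD.

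**Figure D1:**
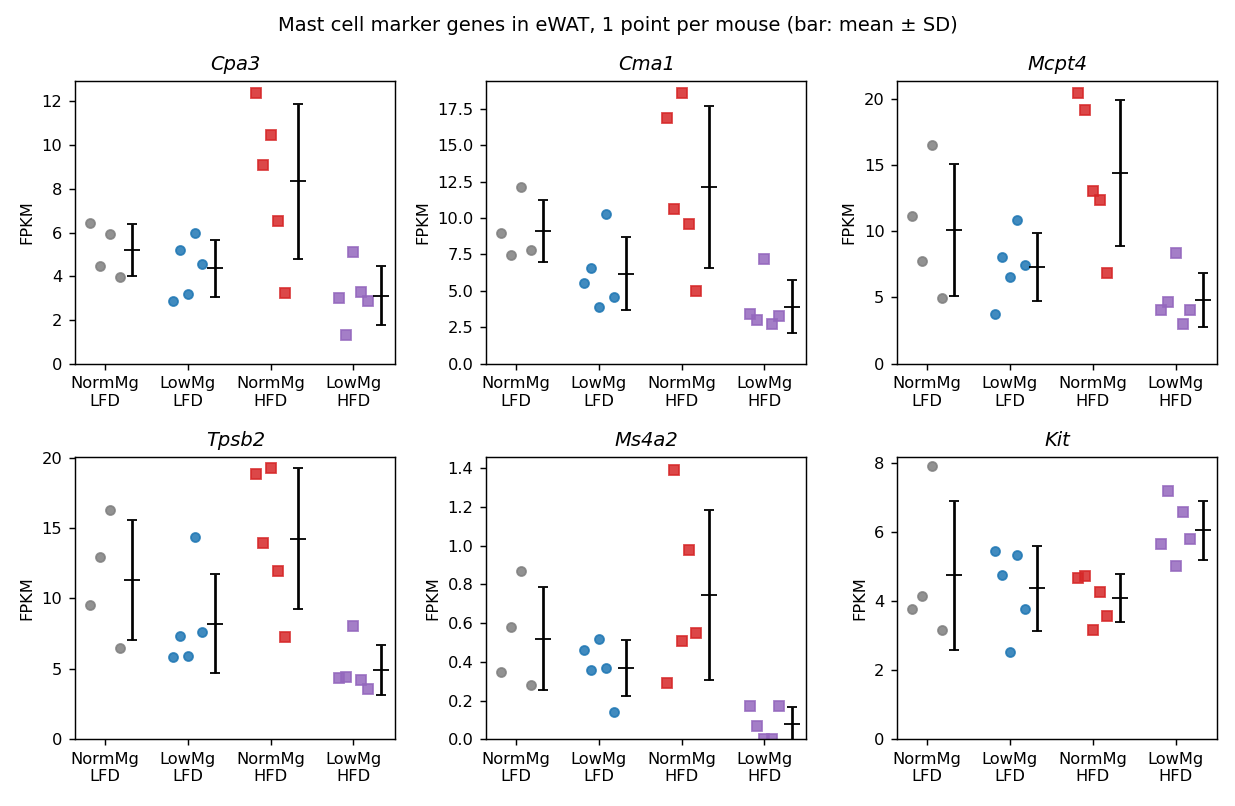
FPKM of each mast cell marker (vertical axis, starting at 0) in the 4 diet groups, with 1 point per mouse and the mean ± SD beside the points (n = 4 in NormMg-LFD, n = 5 in the others). The mean of LowMg-HFD is the lowest of the groups for the 4 proteases (3.12 to 4.92 FPKM) and Ms4a2 and the highest for Kit (6.04 FPKM), while single mice of the groups overlap, as for Kit at 7.90 FPKM in 1 NormMg-LFD mouse.

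The first comparison asks what Mg2+ deficiency does on the HFD. Mean mRNA of each mast cell protease was lower when the HFD had the low Mg2+ content. The ratios of the NormMg-HFD to the LowMg-HFD mean ran from 2.68 to 3.10. Ms4a2 was lower as well, while Kit was not. Of the 5 members tested, 4 were called lower in this comparison and none higher (limma on log2(FPKM + 1), Benjamini-Hochberg adjusted over 15785 genes, threshold 0.05), whereas 6.97% of all genes tested were called lower, 2.58% higher and 9.55% were called in either direction. The median log2 fold change of the 5 members tested was -1.34, beside 0.01 over all genes tested. Since the markers were chosen with earlier results of these data known, these shares describe the set and do not test it. The study also reports a lower body weight and less eWAT in the LowMg-HFD group. Its authors find it hard to assign the metabolic changes to weight or to Mg2+ deficiency. Whether the marker levels followed body weight or fat mass was not tested here.

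Mcpt4, the chymase nearest in activity to human chymase, was measured at 20.45, 19.16, 13.07, 12.35 and 6.88 FPKM in the NormMg-HFD mice. In the LowMg-HFD mice it was at 4.07, 4.66, 8.32, 3.00 and 4.07 FPKM. Of the 5 Mg2+-deficient mice, 4 were lower than the whole NormMg-HFD group, and the groups overlapped through the highest LowMg-HFD and the lowest NormMg-HFD mouse. The log2 fold change was -1.38 ± 0.32 (SE; limma, adjusted p = 0.0105).

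Tpsb2, the tryptase stored with heparin in the granule, was at 18.84, 13.93, 19.25, 11.92 and 7.25 FPKM in NormMg-HFD and at 4.37, 4.42, 8.08, 4.19 and 3.56 FPKM in LowMg-HFD. The same pair of mice, LowMg-HFD replicate 3 and NormMg-HFD replicate 5, made the groups overlap. Its log2 fold change was -1.34 ± 0.28 (SE; limma, adjusted p = 0.00727), the smallest adjusted p of the 6 genes.

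Cma1 was at 16.86, 10.60, 18.58, 9.57 and 5.02 FPKM in NormMg-HFD and at 3.42, 2.97, 7.16, 2.76 and 3.25 FPKM in LowMg-HFD. Again 4 of 5 values in LowMg-HFD were under the lowest in NormMg-HFD. The log2 fold change was -1.36 ± 0.30 (SE; limma, adjusted p = 0.00809). Of the stretches of 50 bases in its transcript, 5.46% also occur in the gene Gm48934, and 5.48% of those of Mcpt4 occur in Cma2 or Mcpt9, so that a small share of their reads could have been split between genes.

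Cpa3 was at 12.38, 9.11, 10.47, 6.51 and 3.25 FPKM in NormMg-HFD and at 2.99, 1.33, 5.13, 3.26 and 2.87 FPKM in LowMg-HFD. The groups overlapped more than for the other proteases, with 3 of 5 values in LowMg-HFD under the lowest in NormMg-HFD. Its log2 fold change was -1.14 ± 0.28 (SE; limma, adjusted p = 0.0158). The call was the least firm of the 4, since it was lost without NormMg-HFD replicate 1 (adjusted p = 0.0521 in limma), without NormMg-HFD replicate 3 (adjusted p = 0.0543) and when the 2 groups were fitted alone (adjusted p = 0.0601). The log2 fold changes in these fits were -0.99, -1.04 and -1.14.

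Ms4a2 was too low for the genes tested, whose mean over all mice had to reach 0.5 FPKM, and was read from a fit of all 24237 genes. It was at 0.29, 1.39, 0.51, 0.98 and 0.55 FPKM in NormMg-HFD and at 0.17, 0.07, 0, 0 and 0.17 FPKM in LowMg-HFD. The groups did not overlap, and all 5 LowMg-HFD mice were lower, a separation that 6.1% of the genes tested showed. The log2 fold change was -0.66 ± 0.15 (SE; limma on all genes, adjusted p = 0.0158), in a fit that called 3.85% of genes lower. With 1 read worth about 0.07 FPKM, these values rest on about 6 reads over the 5 LowMg-HFD mice and about 50 over the 5 NormMg-HFD mice, so that the size of the difference is poorly known and the 2 values of 0 do not show absence.

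Kit was at 4.67, 4.72, 3.15, 4.26 and 3.56 FPKM in NormMg-HFD and at 5.65, 7.19, 5.01, 6.58 and 5.79 FPKM in LowMg-HFD. Every LowMg-HFD mouse was above every NormMg-HFD mouse, which was so for 2.45% of all genes tested. The log2 fold change of 0.48 ± 0.20 (SE) did not pass the threshold (limma, adjusted p = 0.14). Kit is thus the 1 marker whose group means stood the other way round from those of the proteases.

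**Figure D2:**
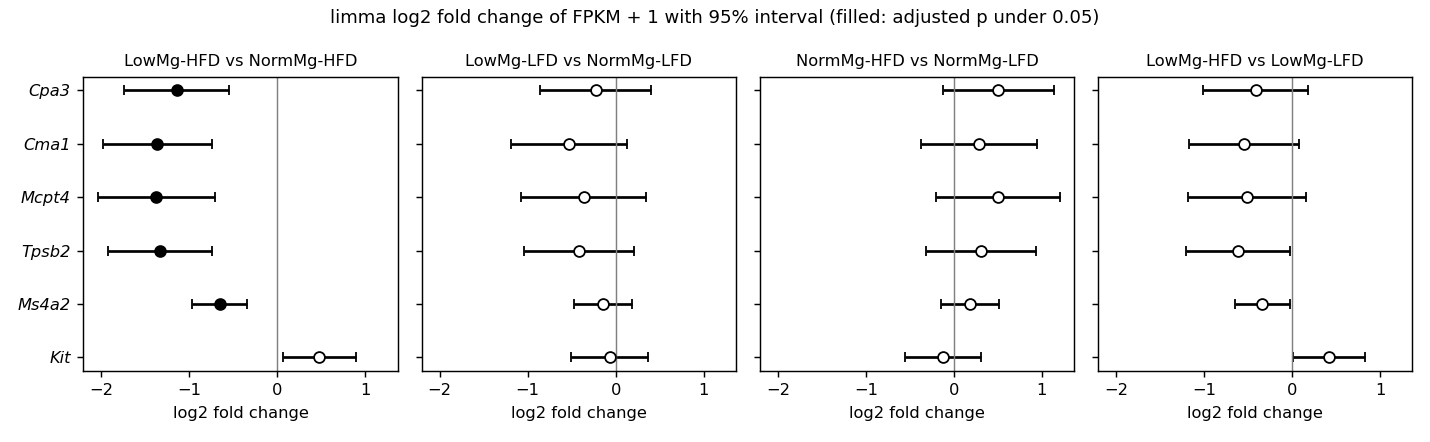
Log2 fold change of FPKM + 1 (horizontal axes) of each marker in 4 comparisons, as the limma estimate with its 95% interval; filled points have an adjusted p under 0.05, and Ms4a2 is from the fit of all genes. The 4 proteases (-1.14 to -1.38) and Ms4a2 (-0.66) are filled in LowMg-HFD vs NormMg-HFD, and no point is filled in the other comparisons.

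The same question on the LFD gave smaller differences. Mcpt4 was at 11.14, 7.72, 16.52 and 4.97 FPKM in NormMg-LFD and at 3.72, 8.05, 6.51, 10.82 and 7.47 FPKM in LowMg-LFD, and the groups overlapped. Tpsb2 was at 9.53, 12.95, 16.26 and 6.48 FPKM in NormMg-LFD, and at 5.83, 7.35, 5.94, 14.33 and 7.64 FPKM in LowMg-LFD. Cma1, at 8.94, 7.43, 12.15 and 7.83 FPKM against 5.54, 6.58, 3.88, 10.28 and 4.58 FPKM, had 4 of 5 LowMg-LFD mice below all NormMg-LFD mice. The log2 fold changes of the proteases were -0.23 for Cpa3, -0.36 for Mcpt4, -0.42 for Tpsb2 and -0.53 for Cma1, with 95% intervals that reached from -1.19 to 0.12 for Cma1. These estimates were loose, since leaving out 1 mouse at a time moved them from -0.33 to -0.12 for Cpa3, from -0.62 to -0.11 for Mcpt4, from -0.63 to -0.23 for Tpsb2 and from -0.71 to -0.40 for Cma1. Over all alternatives, other scalings among them, Cpa3 ran from -0.38 to -0.06 and Cma1 from -0.79 to -0.40. None of the 5 members tested passed (limma, lowest adjusted p = 0.878), and 0 had an unadjusted p under 0.05. Over all genes tested 0% were called, and 5.63% had an unadjusted p under 0.05.

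Cpa3 was at 6.45, 4.49, 5.95 and 3.95 FPKM in NormMg-LFD and at 2.87, 5.19, 3.21, 5.97 and 4.57 FPKM in LowMg-LFD. Kit was at 3.76, 4.15, 7.90 and 3.15 FPKM in NormMg-LFD and at 5.45, 4.74, 2.54, 5.34 and 3.76 FPKM in LowMg-LFD, and its direction in this comparison turned with the scaling of the samples. Ms4a2 was at 0.35, 0.58, 0.87 and 0.28 FPKM in NormMg-LFD and at 0.46, 0.36, 0.52, 0.37 and 0.14 FPKM in LowMg-LFD. For each of these 3 genes the LFD groups overlapped.

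Whether the Mg2+ difference was larger on the HFD than on the LFD was tested as an interaction. The log2 interaction of the proteases was -1.01 ± 0.46 for Mcpt4, -0.92 ± 0.41 for Tpsb2, -0.92 ± 0.41 for Cpa3 and -0.83 ± 0.43 for Cma1 (SE). None passed the adjustment (limma, adjusted p = 0.284 to 0.358), although the unadjusted p was 0.0417 for Mcpt4, 0.0376 for Tpsb2 and 0.0402 for Cpa3. Such an unadjusted p under 0.05 was reached by 15.7% of all genes tested, and 0% were called. The difference between the effects of Mg2+ on the 2 diets was therefore not shown for these genes.

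The next comparison asks what the HFD does at normal Mg2+. Here the protease means were higher in NormMg-HFD than in NormMg-LFD by ratios from 1.26 for Tpsb2 to 1.60 for Cpa3, but no member was called (limma, adjusted p = 0.245 to 0.699), although 24.7% of all genes tested were. None of the 5 had an unadjusted p under 0.05, as 35.5% of all genes tested did. Cpa3 came nearest, with 4 of 5 NormMg-HFD mice above every NormMg-LFD mouse, a log2 fold change of 0.50 ± 0.30 (SE) and an adjusted p of 0.245 in limma. Without NormMg-HFD replicate 5, which had the lowest level of all 4 proteases in its group, Cpa3 was called higher (log2 fold change 0.76, limma adjusted p = 0.0426). The other estimates also moved with single mice, from 0.09 to 0.51 for Tpsb2, from 0.11 to 0.53 for Cma1 and from 0.24 to 0.76 for Mcpt4. For Mcpt4 the 95% interval of the log2 fold change ran from -0.21 upwards past 1, and for Tpsb2 from -0.32 to 0.93, so that neither a small fall nor a considerable rise lay outside it.

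At low Mg2+ the protease means were lower in LowMg-HFD than in LowMg-LFD, by log2 fold changes of -0.41 for Cpa3, -0.51 for Mcpt4, -0.55 for Cma1 and -0.61 for Tpsb2. With 1 mouse left out at a time these ran from -0.57 to -0.22 for Cpa3, its smallest without LowMg-HFD replicate 2, and over the other proteases from -0.78 to -0.37. Kit stood at 0.42 ± 0.20 (SE) in the other direction. No member passed the threshold (limma, lowest adjusted p = 0.213), and 7.7% of all genes tested did. An unadjusted p under 0.05 was reached by 2 members, Tpsb2 (0.0422) and Kit (0.0467), and by 21.1% of all genes tested. The median log2 fold change over all genes tested was 0.11 in this comparison, so that relative to the other genes the differences of the proteases are larger than stated. Over all alternatives, other scalings among them, they ran from -0.63 to -0.22 for Cpa3 and from -0.75 to -0.25 for Mcpt4. Cma1 ran from -0.78 to -0.29 and Tpsb2 from -0.83 to -0.38, and none of the 4 passed in any alternative. Ms4a2, in the fit of all genes, passed in none of the comparisons other than that of the HFD groups (limma, adjusted p = 0.27 to 0.928).

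The 4 proteases moved together from mouse to mouse. Pearson's r of log2(FPKM + 1) over the 19 mice was 0.87 to 0.94 for their 6 pairs, and 0.72 to 0.87 once the group means were removed. LowMg-HFD replicate 3 was the highest and NormMg-HFD replicate 5 the lowest mouse of its group for every one of the 4 proteases. Ms4a2 had r of 0.46 to 0.62 with the proteases, which went to -0.14 to 0.16 without the group means, on values worth few reads. Kit had r of -0.27 to -0.14 with the other members, and 0.11 to 0.38 without the group means. These correlations are descriptions over mice that share 4 diets, and all values share the scaling of their library.

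**Figure D3:**
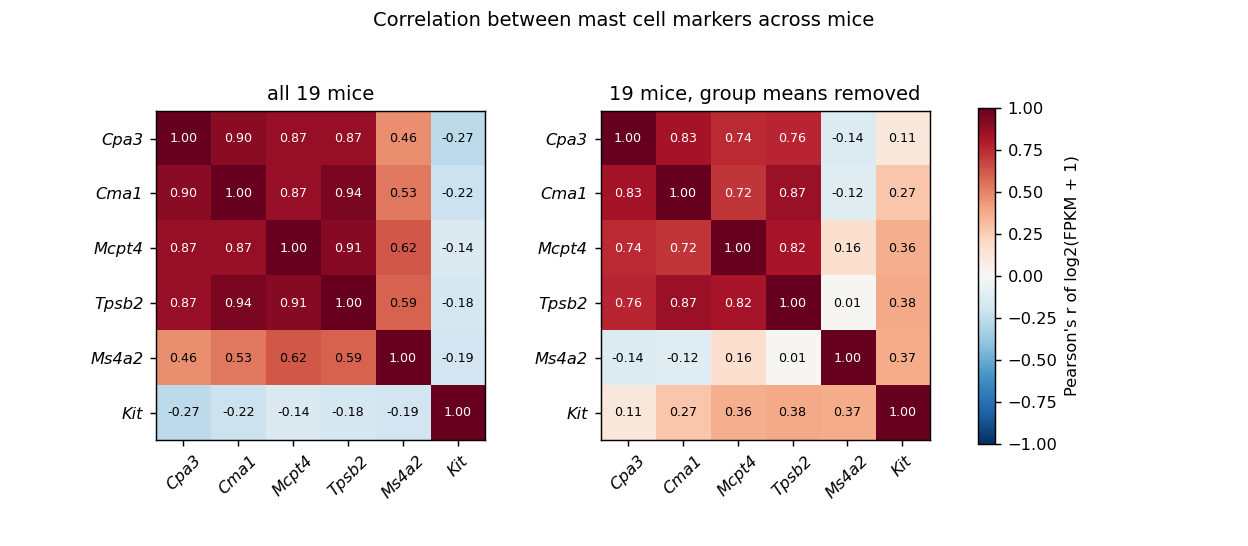
Pearson's r of log2(FPKM + 1) between each pair of markers over 19 mice (left) and after the mean of each diet group was removed (right); colour runs from -1 to 1. The 4 proteases form a block with r of 0.87 to 0.94, or 0.72 to 0.87 without group means, and Kit stays outside it.

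Across the 15785 genes tested, those whose pattern over 19 mice was most like the mean standardised level of the 5 members tested were Inppl1 (r = 0.89), Nfxl1 (0.87), Hnrnpul2 (0.85), Adamts15 (0.84), Gm16216 (0.82), Hnrnpa1 (0.81), Ppil2 (0.81), Sf3b2 (0.81), Ctsc (0.81) and Pf4 (0.80). With group means removed they included Ctsc (r = 0.91), Nfxl1 (0.87), Ctdsp1 (0.84), Inppl1 (0.84), Adamts15 (0.84), C77080 (0.83), Adar (0.82), Lrrc45 (0.82) and Cpsf7 (0.81). Inppl1, Nfxl1, Adamts15 and Ctsc stood in both lists. Kit, although a part of the mean of the 5 members, had r of only 0.05 with it. Against the mean of the 4 proteases alone, Nfxl1 and Ctsc again stood in both lists. Inppl1 then stood only in the list with group means kept, and Adamts15 in neither. Being the highest values out of so many genes, these r are descriptions only.

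Other genes of mast cells were then read in 5 lists. Among granule genes, 4 of 11 in the table were abundant enough to test, and none was called in LowMg-HFD vs NormMg-HFD. Tpsab1, the tryptase mMCP-7, was near the lower limit in every group, with means of 0.332 to 0.408 FPKM, and C57BL/6 mice are known to lack this tryptase. The chymases of mucosal mast cells, Mcpt1 and Mcpt2, had means of at most 0.045 FPKM in any group. Cma1, Mcpt4, Tpsb2 and Cpa3 are known as the proteases of connective tissue mast cells. Hdc, which makes histamine, varied widely between mice of one diet, with 0.91 to 8.94 FPKM in NormMg-HFD and 0.97 to 14.98 FPKM in LowMg-HFD, and did not pass (log2 fold change 0.32 ± 0.63 SE, limma adjusted p = 0.796). Tph1, the serotonin-forming hydroxylase, had group means of 0.194 to 0.46 FPKM. Srgn, the serglycin core protein that many leukocytes make, was called higher in NormMg-HFD vs NormMg-LFD (log2 fold change 0.90 ± 0.20 SE, limma adjusted p = 0.00307).

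Of the receptors and signalling genes, 11 of 13 were tested, 6 were called lower in LowMg-HFD vs NormMg-HFD and none higher, with a median log2 fold change of -0.66. Of all genes tested, 6.97% were called lower there. The 6 were Il1rl1, the receptor of IL-33, and Fcer1g, Lat2, Syk, Lyn and Btk. All 6 were also called higher in NormMg-HFD vs NormMg-LFD, where 24.7% of all genes tested were called in either direction. That comparison shares the NormMg-HFD mice, and which cells the RNA of these genes came from was not tested. Fcer1g, the common gamma chain of Fc receptors, which macrophages express too, had means of 35.95 ± 2.37 (SD, n = 4) FPKM in NormMg-LFD, 175.8 ± 36.1 (SD, n = 5) in NormMg-HFD and 74.77 ± 28.6 (SD, n = 5) in LowMg-HFD. Il1rl1 moved less, with 3.01 ± 0.545 FPKM, 4.62 ± 0.525 and 2.50 ± 0.658 in the same groups, and a log2 fold change of -0.70 ± 0.15 (SE; limma adjusted p = 0.00796) in LowMg-HFD vs NormMg-HFD.

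Fcer1a, the IgE-binding chain of FcεRI, had means of 0.515 ± 0.239 (SD, n = 4) FPKM in NormMg-LFD, 0.57 ± 0.571 (SD, n = 5) in LowMg-LFD, 0.994 ± 0.593 (SD, n = 5) in NormMg-HFD and 0.242 ± 0.272 (SD, n = 5) in LowMg-HFD. The means at both ends were in the same groups as for Ms4a2, another subunit of the receptor, but the difference between the HFD groups did not pass (log2 fold change -0.66 ± 0.27 SE, limma adjusted p = 0.135).

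Among 6 enzymes that make lipid mediators, Hpgds, the haematopoietic prostaglandin D synthase, was called lower in LowMg-HFD vs NormMg-HFD (log2 fold change -1.58 ± 0.33 SE, limma adjusted p = 0.00709), and so was Alox5ap (-0.92 ± 0.21 SE, adjusted p = 0.0107). In NormMg-HFD vs NormMg-LFD, Hpgds, Alox5ap and Ltc4s were called higher (log2 fold changes 2.65, 1.61 and 0.92) and Ptgs1 lower (-0.77). The proteases, at 0.28 to 0.50, were not called there. Which cells the RNA of these enzymes came from was not tested. Of the transcription factors, Mitf, needed for mast cell development and also expressed by macrophages, was called higher in NormMg-HFD vs NormMg-LFD (0.89 ± 0.28 SE, limma adjusted p = 0.0280) and lower in LowMg-HFD vs NormMg-HFD (-0.88 ± 0.27 SE, limma adjusted p = 0.0462). Gata2 was called lower in NormMg-HFD vs NormMg-LFD (-0.77 ± 0.24 SE, limma adjusted p = 0.0244). None of the 4 growth factor genes tested was called in LowMg-HFD vs NormMg-HFD, among them Kitl, the ligand of KIT, with means of 17.3 to 20.7 FPKM in the 4 groups.

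Genes of other cells were read in the same comparisons. Of 8 macrophage genes, 7 were called higher in NormMg-HFD vs NormMg-LFD and 7 lower in LowMg-HFD vs NormMg-HFD, with median log2 fold changes of 3.08 and -1.57. Of all genes tested, 24.7% and 9.55% were called in these comparisons in either direction, and 7.7% in LowMg-HFD vs LowMg-LFD. In LowMg-HFD vs LowMg-LFD, 6 of the 8 were called higher (median 1.39), as were Ptprc, the gene of the pan-leukocyte antigen CD45 (0.73 ± 0.20 SE, limma adjusted p = 0.0321), and 4 of the 11 receptor and signalling genes of mast cells, while the estimates of the 4 proteases were -0.41 to -0.61. The summed level of the macrophage genes ran from 153.77 to 203.43 FPKM in NormMg-LFD, from 919.15 to 1612 in NormMg-HFD and from 223.69 to 932.41 in LowMg-HFD. Cd68, a lysosomal protein of macrophages, had a log2 fold change of 3.26 ± 0.36 (SE; limma adjusted p = 5.65e-06) for fat at normal Mg2+, a comparison in which no protease passed. Of the 2 basophil genes, neither of which was abundant enough to test, Mcpt8 was at 0 in 18 of 19 mice, while Prss34 had group means of 0.256 to 0.44 FPKM, a level like that of Ms4a2, and was at 0 in 3 mice, all LowMg-HFD. Of 8 genes of other cells that carry KIT, 5 were tested and none of these was called in LowMg-HFD vs NormMg-HFD. Ano1, of interstitial cells of Cajal, was at 3.49 ± 1.80 FPKM in NormMg-HFD and 6.68 ± 4.37 in LowMg-HFD (SD, n = 5). Etv1, of the same list, stood the other way, at 2.19 ± 0.41 and 1.75 ± 0.51 FPKM. Of the genes tested of other cells in LowMg-HFD vs NormMg-HFD, 1 of 5 for neutrophils was called lower (S100a8), 0 of 8 for T, NK and innate lymphoid cells and 0 of 1 for eosinophils were called, 2 of 5 for adipocytes were called higher, 1 of 5 for stroma lower and 1 of 4 for endothelium higher. The part of all these cells in the levels of the members was not tested.

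**Figure D4:**
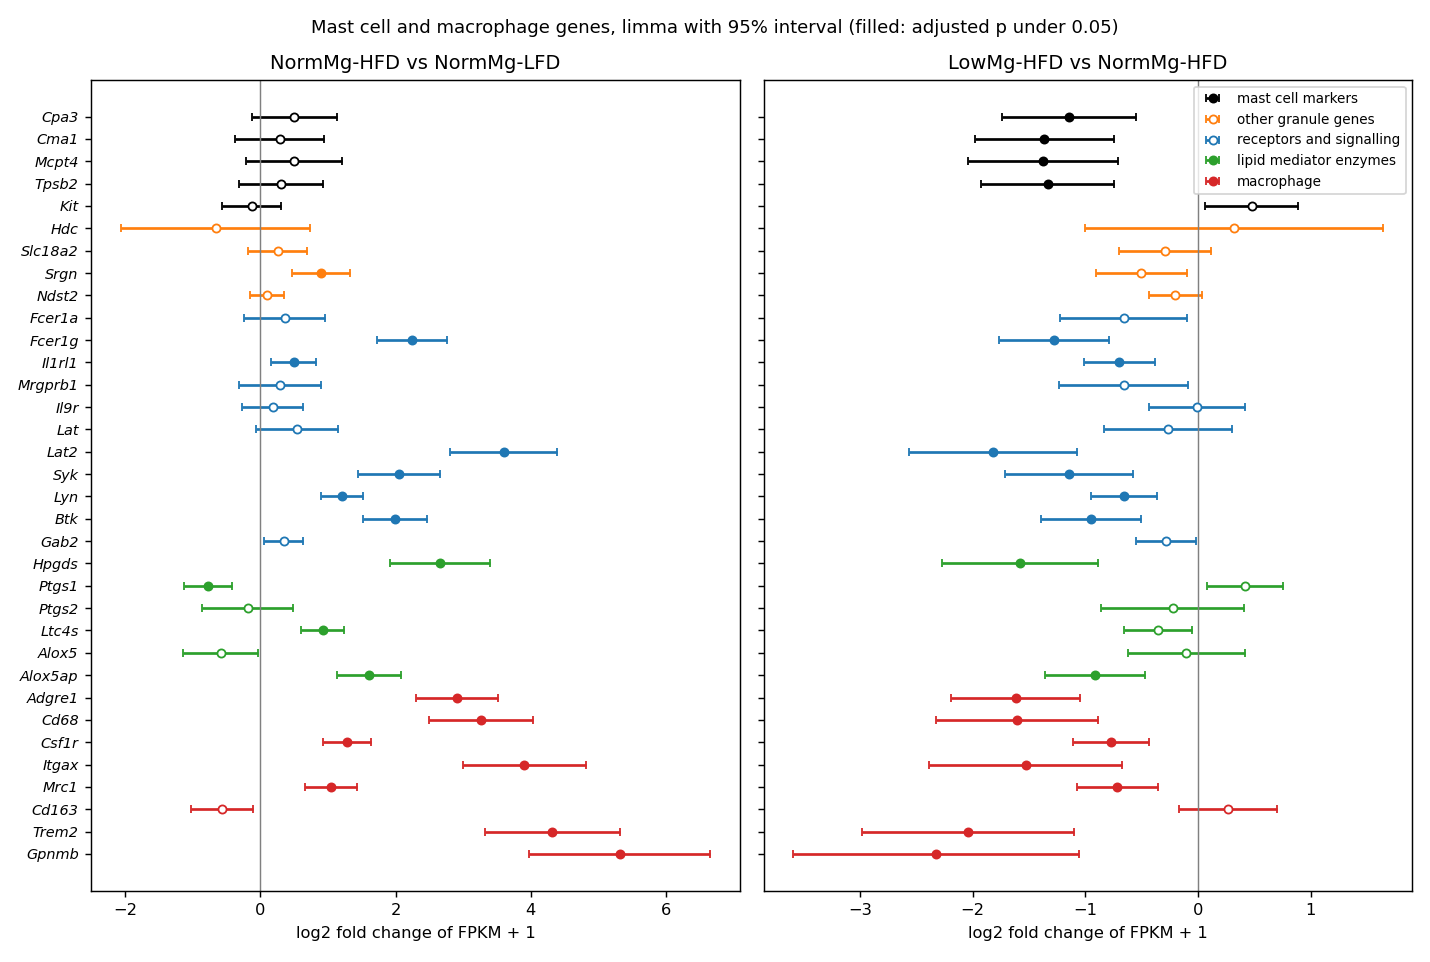
Log2 fold change of FPKM + 1 with its 95% interval (limma) for the mast cell markers tested, 3 other lists of mast cell genes and 8 macrophage genes, in NormMg-HFD vs NormMg-LFD (left) and LowMg-HFD vs NormMg-HFD (right), which share the NormMg-HFD mice; filled points have an adjusted p under 0.05. The proteases (0.28 to 0.50 on the left) are open on the left and filled on the right (-1.14 to -1.38), and 7 of 8 macrophage genes are filled on both sides.

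To place the proteases within the leukocytes of the tissue, the log2 level of each was taken relative to that of Ptprc. Ptprc itself was 4.11 times higher in NormMg-HFD than in NormMg-LFD and 1.98 times lower in LowMg-HFD than on the same fat with normal Mg2+, without overlap. The protease means rose by ratios of 1.26 to 1.60 in the first of these, so that their relative level fell there through the rise of Ptprc. Ptprc was taken after its values were seen, so that the p-values below are no independent test. Relative to Ptprc, all 4 proteases were lower in NormMg-HFD than in NormMg-LFD, by log2 differences of -1.43 for Cpa3, -1.65 for Cma1, -1.43 for Mcpt4 and -1.63 for Tpsb2, with 5 of 5 NormMg-HFD mice below every NormMg-LFD mouse (two-sided exact permutation test, p = 0.00794, the smallest it can give here; adjusted over 16 tests, p = 0.0317). Between LowMg-HFD and NormMg-HFD the same measure differed by -0.14 to -0.37, which did not pass (exact permutation test, adjusted p = 0.417 to 0.794). With 1 mouse left out at a time these values ran from -0.38 to 0.20 for Cpa3, from -0.64 to -0.15 for Cma1, from -0.64 to -0.23 for Mcpt4 and from -0.58 to -0.16 for Tpsb2, the lowest value of each being that without LowMg-HFD replicate 3. Between LowMg-HFD and LowMg-LFD it differed by -1.14 to -1.34 (exact permutation test, adjusted p = 0.0508 to 0.0794). On the LFD, LowMg-LFD differed from NormMg-LFD by -0.42 for Cpa3, -0.73 for Cma1, -0.56 for Mcpt4 and -0.61 for Tpsb2 (exact permutation test, adjusted p = 0.0847 to 0.159), which did not pass either. With any 1 mouse of NormMg-HFD or NormMg-LFD left out, every NormMg-HFD mouse stayed below every NormMg-LFD mouse for all 4 proteases (-1.22 to -1.85). The exact permutation test then stood at the smallest p it can give, 0.0179 or 0.0286 (adjusted p = 0.0571 or 0.0726), so that it could not pass the threshold beside the other 12 tests. Without LowMg-HFD replicate 3 all 4 proteases passed in LowMg-HFD vs LowMg-LFD (-1.39 to -1.60, exact permutation test, adjusted p = 0.0181 to 0.0317). Ptprc covers leukocytes of all kinds, among them the macrophages whose genes are given above.

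**Figure D5:**
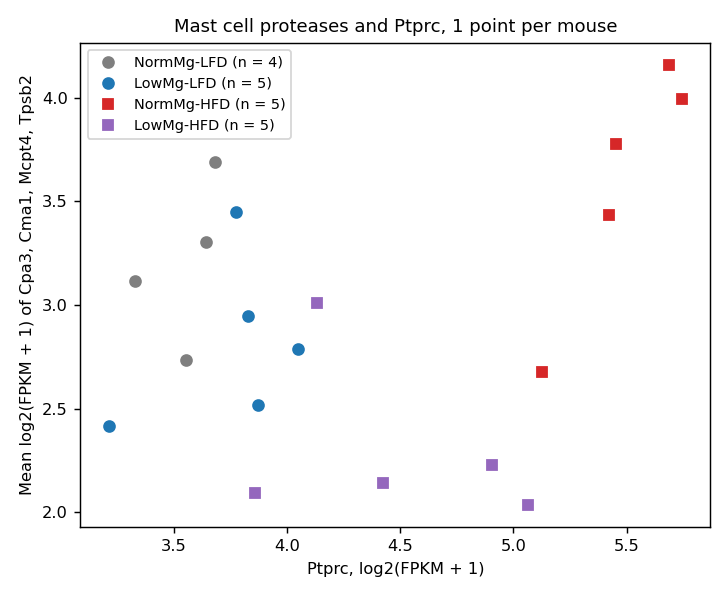
Mean log2(FPKM + 1) of Cpa3, Cma1, Mcpt4 and Tpsb2 (vertical axis) against log2(FPKM + 1) of Ptprc (horizontal axis), 1 point per mouse, with colour and shape for the diet group. All 5 NormMg-HFD mice lie to the right of every LFD mouse, and 4 of the 5 LowMg-HFD mice lie below all NormMg-HFD mice and all LFD mice.

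Without the 3 libraries with RNA of neighbouring organs, 4 of 5 members were again called lower in LowMg-HFD vs NormMg-HFD, in a fit that called 8.68% of genes in either direction, with log2 fold changes from -1.17 for Cpa3 to -1.30 for Tpsb2 (limma, adjusted p = 0.0139 to 0.03). None was called in the other comparisons, where the share of genes called was 26.9% in NormMg-HFD vs NormMg-LFD, 8.53% in LowMg-HFD vs LowMg-LFD, 0% in LowMg-LFD vs NormMg-LFD and 0.00659% for the interaction. In LowMg-HFD vs LowMg-LFD the estimates came nearer to 0, at -0.29 for Cma1, -0.25 for Mcpt4, -0.38 for Tpsb2 and -0.34 for Cpa3. In LowMg-LFD vs NormMg-LFD they moved away from it, to -0.79 for Cma1, -0.58 for Mcpt4, -0.53 for Tpsb2, -0.38 for Cpa3 and -0.16 for Kit. The interaction of Cma1 went to -0.49 and that of Mcpt4 to -0.67. The highest Kit level of the LFD groups, 7.90 FPKM, was in NormMg-LFD replicate 4, which also had the second-highest Ddx4 level. That mouse was also the highest of its group for Cma1, Mcpt4, Tpsb2 and Ms4a2. LowMg-HFD replicate 4, with the highest Ddx4 level (25.45 FPKM), had 6.58 FPKM of Kit, below the 7.19 FPKM of replicate 2. The source of the Kit RNA was not tested.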

How the data were processed

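Total RNA of eWAT from 19 mice was sequenced as 50-base single-end reads. The authors mapped the reads to GRCm38 (mm10) with HISAT and Bowtie2, obtained FPKM per gene with RSEM 1.2.31 and deposited them as 1 table. The authors also deposited the counts of reads per library and the percent of them mapped (86.12% to 90.41%). Of 24238 genes, 1 with a cell that is not a number was left out and 26 date-like symbols were restored. Mice were grouped by their labels. The study kept several mice per cage, and which of them shared a cage is not given in the sources used here. P-values therefore measure the spread between these mice, and the part of the cage in the differences could not be tested. FPKM are not counts, whole reads could not be recovered for nearly all genes, and read numbers are approximate; precision was taken from the spread between mice.

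Genes with a mean of at least 0.5 FPKM over all mice (15785) were tested on log2(FPKM + 1), which understates the change of low genes, in limma 3.58.1 under R 4.3.3, allowing the variance to follow the level, with the 4 groups in 1 fit without covariates. P-values are two-sided and Benjamini-Hochberg adjusted over the genes tested. Relations to Ptprc, added after the data were seen, used exact permutation tests. The fit was tested on simulated data. The markers and 18 gene lists were chosen with earlier results of these data known. Beside the members, the genes named are those of the mast cell lists past the threshold in any comparison, Tpsab1, Fcer1a, Hdc, Tph1, Gata2 and Kitl, up to 3 abundant genes of each other list and the 10 genes most like the members, of which 1 is not reported here. Mcpt1, Mcpt2, Mcpt8, Ptprc, Adipoq and the genes sharing sequence with a member were named after their values were seen. The alternatives were other pseudocounts, filters and scalings, a replicate block, only the groups compared, and each mouse left out.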

Additional observations from a re-analysis of the deposited data

Results flagged for a closer look

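In 3 of the 24 pairs of member and group, 1 mouse stood apart from the others by Dixon's test. Chance alone gives such a result in about 1 of 20 groups. In LowMg-HFD, the highest mouse had 7.16 FPKM of Cma1 and 8.08 FPKM of Tpsb2, both in replicate 3. In LowMg-LFD, the highest mouse had 14.33 FPKM of Tpsb2, in replicate 4, the library with epididymis RNA. Without LowMg-HFD replicate 3 the proteases of LowMg-HFD lay further below those of NormMg-HFD.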

How the results depend on the processing

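Under every alternative run for it, Cma1, Mcpt4 and Tpsb2 stayed lower in LowMg-HFD vs NormMg-HFD and past the threshold (29 of 29 alternatives each; largest adjusted p in limma 0.0361, 0.0347 and 0.0287). Cpa3 did so in 25 of 28; the call was lost when only the groups compared were fitted and without NormMg-HFD replicate 1 or 3, which leaves fewer mice (log2 fold change -0.99 and -1.04). The filter of the study (FPKM over 8) is among these 29 alternatives. It left 3 members to test, Cma1, Mcpt4 and Tpsb2, and all 3 were called, with 18.5% of all genes. They pass that filter only through NormMg-HFD, the group where they are highest, so that this alternative is no check of the difference. With all genes tested, 5 of 6 members and 5.1% of genes were called. With only the groups compared, 3 of 5 members and 7.54% of genes were called. With 1 mouse left out at a time, 3 to 4 members were called in LowMg-HFD vs NormMg-HFD, 0 to 1 in NormMg-HFD vs NormMg-LFD (the 1 being Cpa3 without NormMg-HFD replicate 5), and 0 in the others. The same fits called 5.14% to 10.5% of all genes in the first of these, 19.9% to 30.0% in the second, 4.2% to 9.37% in LowMg-HFD vs LowMg-LFD, 0% in LowMg-LFD vs NormMg-LFD and 0% to 1.89% for the interaction. Replicate numbers did not pair the mice, since the deviations of same-numbered mice had a median correlation of -0.01 (6 of 27 pairs over 0.1); with a replicate block, 4 members were called in LowMg-HFD vs NormMg-HFD, where 8.7% of genes were, and 0 in each other comparison, as without it (24.1% of genes in NormMg-HFD vs NormMg-LFD, 7.05% in LowMg-HFD vs LowMg-LFD and 0% in the others). Kit turned positive in LowMg-LFD vs NormMg-LFD with median centring (0.058), with quantile normalization (0.096), without NormMg-LFD replicate 4 (0.17) and without LowMg-LFD replicate 3 (0.076), a range of -0.20 to 0.17 with 1 mouse left out. In NormMg-HFD vs NormMg-LFD it ran from -0.26 to 0.11, positive without NormMg-LFD replicate 4. None of these passed, and the cause was not tested. Leaving out the 3 libraries, and the alternatives for Ptprc, were chosen after seeing the data; relative to Ptprc, Cpa3 in LowMg-HFD vs NormMg-HFD ran from -0.38 to 0.20, positive without LowMg-HFD replicate 2. Of the results relative to Ptprc, the 36 of NormMg-HFD vs NormMg-LFD with 1 of its mice left out were past the threshold no longer, but the exact test of so few mice could not pass it and the groups overlapped in 0 of the 36; 4 others came to pass it, all in LowMg-HFD vs LowMg-LFD without LowMg-HFD replicate 3. By Spearman's rho, 4 of the 10 genes most like the members were shared with those by Pearson's r, and 5 with group means removed. Depth limits Ms4a2 most, at 0 to about 2 reads per LowMg-HFD mouse.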
